A study of Mus musculus with 8 samples.

Results

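The genes described here are 8 genes of the transforming growth factor beta (TGF-beta) system, measured in whole mouse skin: the ligands Tgfb1, Tgfb2 and Tgfb3, the receptors Tgfbr1 and Tgfbr2, and the feedback genes Smad6, Smad7 and Skil. They were chosen by name, through the RefSeq accession that the array files give for each non-control probe, and make up 8 of the 20284 genes that could be named on the array. They carry 12 of its 26762 named probes. Total RNA was compared on 8 one-colour arrays, 4 of skin labelled Control and 4 of skin labelled DTG, in a series whose title concerns overexpression of the Musashi1 gene in mouse skin. The labels do not spell out DTG, and strain, age, alleles, inducing agent and the promoter driving the overexpressed gene are not given in the sources used here. The labels give whole skin as the source of all 8 samples and male as the sex, and do not say whether each sample came from an animal of its own.

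TGF-beta ligands are secreted in a latent form, held in the extracellular matrix and released by integrins and proteases. The active ligand brings together a type II receptor, encoded by Tgfbr2, and a type I receptor, encoded by Tgfbr1, which phosphorylates Smad2 and Smad3. These join Smad4 and act on target genes in the nucleus. Smad7 and Smad6 are inhibitory Smads that TGF-beta and bone morphogenetic protein (BMP) signals induce and that in turn block receptor signalling, and Skil (SnoN) is a nuclear repressor of Smad complexes whose gene is itself a TGF-beta target. In skin the pathway is known for restraining keratinocyte growth, for matrix production by fibroblasts during wound repair, and, for Tgfb2, for roles in hair follicle formation and regression.

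Promoter windows of 5 of the 8 genes were searched in RefSeq (build GRCm38.p6). The ones below are shown because they belong to the ligand that fell in DTG skin, to the ligand whose estimate lay in the other direction, and to a feedback gene whose start holds a Smad palindrome. Each runs 5′ to 3′ from 250 bases before the annotated start to 20 bases after it. Tgfb2 lies on the minus strand at chr1:186705970-186706239, Tgfb1 on the plus strand at chr7:25686752-25687021, and Smad6 on the minus strand at chr9:64022040-64022309. Capitals mark the TATA box core TATAAA and the E-box CACGTG in Tgfb2, the GC box GGGCGG or its reverse complement CCGCCC in Tgfb1, and the palindrome GTCTAGAC in Smad6.
Tgfb2: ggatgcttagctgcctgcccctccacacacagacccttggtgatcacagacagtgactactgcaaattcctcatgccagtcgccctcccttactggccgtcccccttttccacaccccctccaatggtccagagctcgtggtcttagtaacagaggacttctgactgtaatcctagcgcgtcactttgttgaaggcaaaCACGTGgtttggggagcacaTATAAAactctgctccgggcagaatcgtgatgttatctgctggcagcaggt
Tgfb1: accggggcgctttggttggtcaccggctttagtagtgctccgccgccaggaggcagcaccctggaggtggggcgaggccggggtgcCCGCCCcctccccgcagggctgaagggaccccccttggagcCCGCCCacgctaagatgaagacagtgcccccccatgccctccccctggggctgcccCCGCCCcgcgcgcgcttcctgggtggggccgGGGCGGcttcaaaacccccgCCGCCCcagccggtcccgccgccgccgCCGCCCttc
Smad6: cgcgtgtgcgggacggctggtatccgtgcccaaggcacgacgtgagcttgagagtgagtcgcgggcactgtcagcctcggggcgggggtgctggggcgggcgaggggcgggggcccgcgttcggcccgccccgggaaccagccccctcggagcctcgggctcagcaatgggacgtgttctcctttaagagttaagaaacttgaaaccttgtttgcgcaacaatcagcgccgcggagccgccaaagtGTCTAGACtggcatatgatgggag
In Tgfb2 the TATA box core spans bases -31 to -26 and the E-box bases -51 to -46, counted from the start. On either strand, TATAAA is present in 12.9% and CACGTG in 6.57% of the 32851 mouse promoters of the same length. The Tgfb1 window holds 6 GC boxes, a motif present at least once in 34.1% of promoters, and its GC content is 76.3%, against 53.7% for Tgfb2 and a median of 52.6% over all promoters. The Smad6 window holds 4 GC boxes, not marked above, at a GC content of 65.6%. A Tgfbr1 window, not shown, holds 2 at 75.6%. The Smad6 palindrome, which 0.183% of promoters hold, spans bases -4 to 4. The short Smad box CAGAC, which does not occur within GTCTAGAC, was found at 2 places in the Tgfb2 window and in 45.4% of promoters. The cAMP response element TGACGTCA, present in 1.73% of promoters, was not found in any of the windows of these genes. These matches describe the windows and are not binding data.

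A level here is the log2 of the background-subtracted signal of a probe, minus the 75th percentile of the log2 signals of non-control probes on that array, so that 0 stands for a probe at that percentile. A fold change is the DTG mean minus the Control mean of these values. A gene was taken as changed at a Benjamini-Hochberg adjusted p under 0.05 in a limma fit over 17751 genes, with the probe of highest mean level standing for the gene. By this rule 32.4% of all genes tested changed, 21.3% lower and 11.1% higher in DTG skin. Only 1 of the 7 tested TGF-beta genes changed (Tgfb2, lower), which is 14.3% of them, and 2 had an unadjusted p under 0.05 (Tgfb2 and Tgfb3). Ordered by the limma p, Tgfb2 stood at place 3358, Tgfb3 at 6709 and Tgfb1 (unadjusted p = 0.052) at 7953 of 17751. An unadjusted p under 0.05 was thus common among all genes. For none of the 7 did the level in every DTG array lie outside the range of the Control arrays on the chosen probe, whereas 34.6% of all genes had groups that did not overlap (23.2% lower and 11.4% higher in DTG). Smad7 was not tested, because its only spot was flagged as an outlier on 6 of the 8 arrays.

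The arrays themselves differed between the groups. Spots well above background made up 79.5 to 85.1% of the total in Control and 68.8 to 71.6% in DTG arrays, the mean negative-control log2 signal was 2.85 ± 0.37 against 4.46 ± 0.19 (SD, n = 4 each, exact permutation p = 0.0286, the smallest that 4 against 4 allows), and spike-in RNA lay lower relative to the 75th percentile in DTG. All Control arrays lay in the first row of the slide and all DTG arrays in the second, and an effect of the row cannot be told apart from one of the group. The median fold change over all genes was -0.15 on the scale used here and 0.32 when arrays were scaled on the spike-in RNA. With spike-in scaling 7.51% of the called genes were lower in DTG, against 65.6% in the main setting. The part of these array differences in the results on the TGF-beta genes was not tested, and the values under spike-in scaling are given beside them. The labels were checked on Msi1, the gene named in the series title: one of its probes read 6.81 log2 units higher in DTG (SE 1.02, adjusted p = 0.0029, limma), the other -0.03. The first probe was read on 3 DTG arrays, as its DTG 1 spot was flagged as an outlier. Its level in Control 2 was -5.92, against -2.26 to -1.48 in the other Control arrays. With flagged spots kept it was 6.87 higher. With the mean of its probes Msi1 was 2.50 higher and did not pass (adjusted p = 0.0602). In that setting the DTG 1 value was the other probe alone, at -3.11, because the spot of the first probe was left out. All samples are labelled male, but 5 arrays (Control 2 and 4, DTG 1, 3 and 4) had high Xist and low Eif2s3y, and the other 3 the reverse. Both classes occurred in each group, so neither group was drawn from a single animal, and whether arrays of the same class share an animal is not given in the sources used here. The keratinocyte markers Krt5, Krt1, Krt10 and Ivl were above background on all 8 arrays.

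Tgfb2, 1 of the 3 TGF-beta ligands, fell in DTG skin. On its brighter probe the levels were 1.84, 1.72, 1.75 and 0.98 in Control 1 to 4 and 0.71, 1.09, 0.47 and 0.42 in DTG 1 to 4. The first 3 Control arrays were above every DTG array, while Control 4 lay between DTG 2 and the other DTG arrays, so the groups overlapped by Control 4 and DTG 2. The mean level was 1.57 ± 0.40 in Control and 0.67 ± 0.31 in DTG (SD, n = 4 each). The fold change was -0.90 log2 units (SE 0.22, 95% interval -1.41 to -0.40), or 1.87-fold lower, with a limma adjusted p of 0.0166. It was -0.76 relative to the median of all genes, and 9.81% of all genes had a larger change in either direction. The exact permutation test of this gene alone, over the same 8 arrays, gave a two-sided p of 0.0571.

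The other Tgfb2 probe gave nearly the same pattern. Its levels were 0.81, 0.65, 0.63 and 0.03 in Control and -0.68, 0.05, -0.66 and -0.55 in DTG. Control 4 was again the lowest Control array and DTG 2 the highest DTG array, and these were the only arrays of the groups to overlap, by 0.03 against 0.05. The fold change of -0.99 (SE 0.22, adjusted p = 0.0107 in the limma fit over 23194 probes, of which 31.3% changed) differed from that of the brighter probe by 0.09 log2 units. The probes read the same RNA samples and are not independent replicates. The direction of Tgfb2 was lower in DTG under every setting tried, on both probes. With spike-in scaling the change was -0.44 on the brighter probe (adjusted p = 0.0788) and -0.53 on the other (adjusted p = 0.0518), and neither passed. Leaving out any 1 array gave -1.10 to -0.81 on the brighter probe, with adjusted p up to 0.0467. With Xist class as a covariate the change was -0.78 (adjusted p = 0.0117). Within the 5 arrays of high Xist it was -0.82 and did not pass (adjusted p = 0.0838). The 3 arrays of low Xist hold a single DTG array, assumed in the fit to vary like the others, and gave -0.71 (adjusted p = 0.104). In whole skin, fewer cells of a type and less RNA per cell cannot be told apart.

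Tgfb1, the ligand of platelets, immune cells and many epithelia, was measured on 10 spots per array. Its levels were -1.61, -1.82, -1.99 and -1.70 in Control and -1.81, -1.38, -1.39 and -1.15 in DTG. DTG 2, 3 and 4 were above all Control arrays, and DTG 1 lay within the Control range. The fold change of 0.35 (SE 0.15, 95% interval -0.0038 to 0.70) did not pass (limma adjusted p = 0.116). Without DTG 1 it was 0.47 and passed (adjusted p = 0.0318), so this array decided the call. With spike-in scaling it was 0.81 and passed (adjusted p = 0.0115). The median SD between the 10 spots of an array was 0.04 log2 units, well under the SD between arrays of 0.17 in Control and 0.28 in DTG.

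Tgfb3, the third ligand, was also measured on 10 spots. Its levels were 0.79, 1.05, 0.93 and 0.66 in Control and 0.48, 0.51, 0.74 and 0.54 in DTG. DTG 3 lay above Control 4, and the other DTG arrays were below all Control arrays. The fold change was -0.30 (SE 0.11, limma adjusted p = 0.0736), which did not pass. Leaving out Control 4 gave -0.36 and a pass (adjusted p = 0.0456), and leaving out Control 3 gave an adjusted p of 0.162. With spike-in scaling the sign turned, to 0.17 (adjusted p = 0.336). Of the ligands, Tgfb1 therefore had a positive estimate and Tgfb2 and Tgfb3 negative ones on the scale used here, with the Tgfb2 estimate alone passing.

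**Figure D1:**
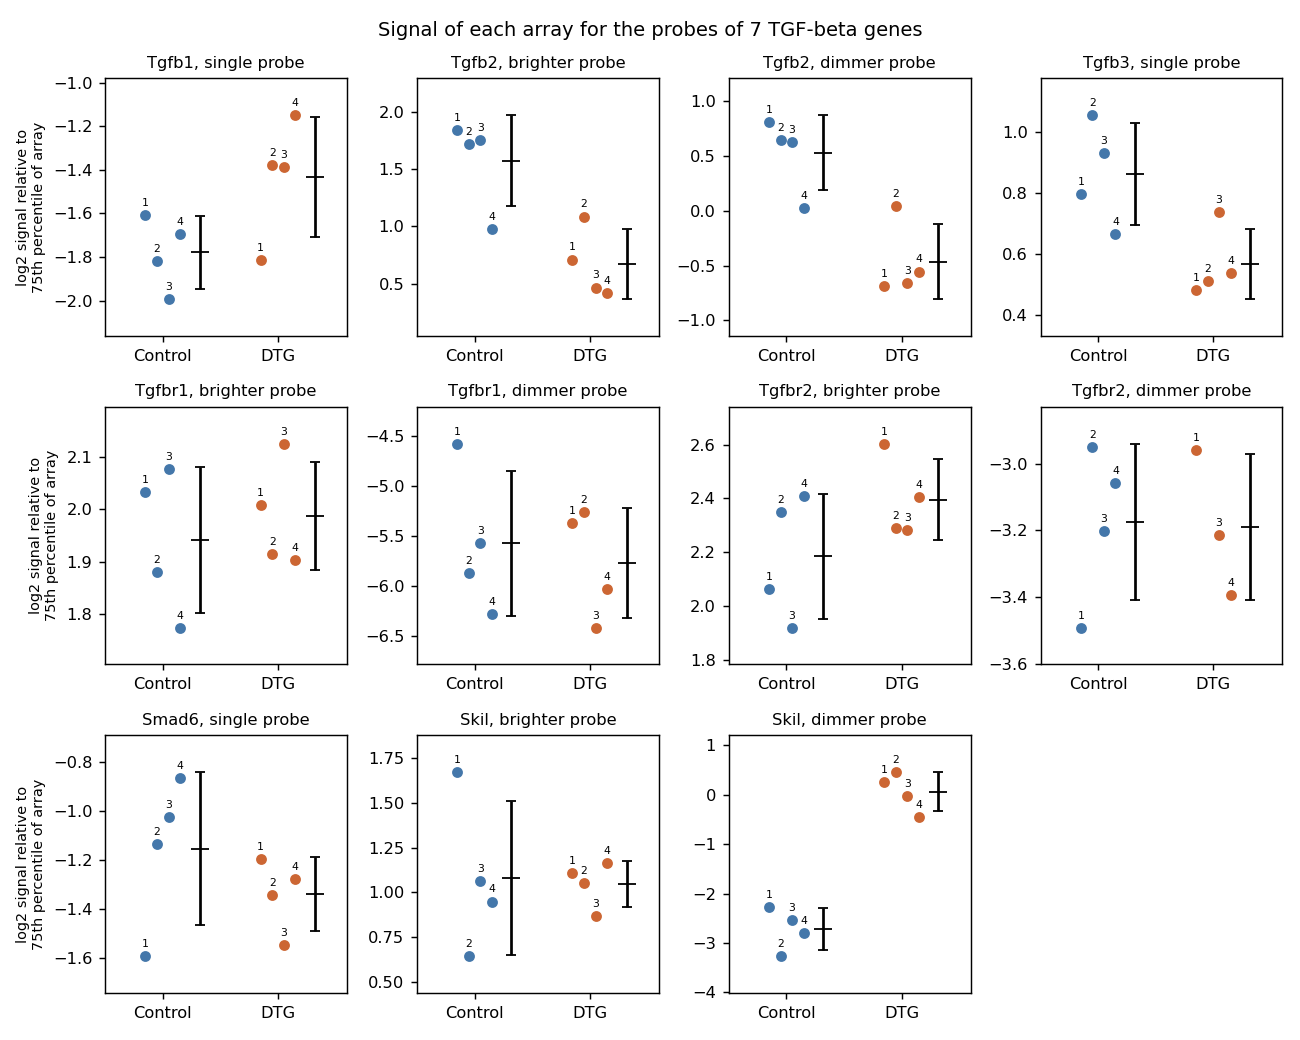
Each panel shows 1 probe of 7 TGF-beta genes, with the level (log2 units above or below the 75th percentile) on the vertical axis (each panel has its own range) and the 4 Control and 4 DTG arrays as numbered points. The bars are the mean ± SD of a group. Both Tgfb2 probes have Control 4 near the DTG arrays, and the dimmer Skil probe has all DTG arrays (-0.46 to 0.45) above all Control arrays (-3.26 to -2.26).

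Tgfbr1, the type I receptor kinase, had levels of 2.03, 1.88, 2.08 and 1.77 in Control and 2.01, 1.91, 2.12 and 1.90 in DTG on its brighter probe. The arrays of the groups were interleaved. It differed by 0.05 (SE 0.10, 95% interval -0.19 to 0.28, limma adjusted p = 0.748), so a change of more than 0.28 log2 units in either direction lay outside the interval on this scale. Its other probe was well above background on none of the DTG arrays, and a bound on its fold would be under 1, so none is given. With spike-in scaling the brighter probe was 0.51 higher in DTG and passed (adjusted p = 0.0073).

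Tgfbr2, the type II receptor that binds the ligand first, had levels of 2.06, 2.35, 1.92 and 2.41 in Control and 2.60, 2.29, 2.28 and 2.40 in DTG on its brighter probe. DTG 1 was the highest array, and the other DTG arrays lay within the Control range. DTG minus Control was 0.21 (SE 0.14, 95% interval -0.10 to 0.52, limma adjusted p = 0.263). The other probe gave -0.01 (SE 0.17, adjusted p = 0.959 over probes), with the spot of DTG 2 left out as an outlier. With spike-in scaling the brighter probe was 0.68 higher in DTG (adjusted p = 0.0329). On their brighter probes the receptors thus passed the test on the spike-in scale and did not on the 75th percentile scale. Their other probes passed on neither scale, with spike-in values of 0.27 for Tgfbr1 (limma adjusted p = 0.536) and 0.45 for Tgfbr2 (adjusted p = 0.176).

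Smad6, the inhibitory Smad that acts mainly on BMP receptors, had levels of -1.59, -1.13, -1.02 and -0.86 in Control and -1.19, -1.34, -1.55 and -1.28 in DTG. Control 1 was the lowest of all 8 arrays and the other Control arrays were above every DTG array. DTG minus Control was -0.19 (SE 0.16, limma adjusted p = 0.399), and without Control 1 it was -0.33 (adjusted p = 0.0704). With spike-in scaling it was 0.28 (adjusted p = 0.392). Smad7, the inhibitory Smad that blocks the TGF-beta type I receptor, had usable spots on Control 3 and 4 alone. When flagged spots were kept, its levels were 0.59, 0.16, 0.48 and -0.04 in Control and 0.79, 0.86, 0.62 and -0.34 in DTG. DTG 1, 2 and 3 were then above all Control arrays and DTG 4 below all of them. DTG minus Control then came to 0.18 (SE 0.27, limma adjusted p = 0.635 over 17773 genes), and it rests mostly on spots that the scanner software marked as outliers.

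Skil gave opposite pictures on its probes, which the array files assign to the same transcript. The brighter probe, on 10 spots per array, had levels of 1.67, 0.65, 1.06 and 0.95 in Control and 1.11, 1.05, 0.87 and 1.17 in DTG. Control 1 was the highest array and Control 2 the lowest, with every DTG array between them. The fold change was -0.03 (SE 0.20, 95% interval -0.49 to 0.43, limma adjusted p = 0.913), and with spike-in scaling it was 0.43 (adjusted p = 0.0900). The median SD between its spots on an array was 0.05, against an SD of 0.43 between Control arrays.

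The dimmer Skil probe, on 1 spot per array, had levels of -2.26, -3.26, -2.53 and -2.80 in Control and 0.25, 0.45, -0.02 and -0.46 in DTG. Every DTG array was above every Control array. Before scaling the signals were 688, 441, 598 and 544 units in Control and 4637, 5824, 4072 and 2729 units in DTG, and all 8 were well above background. The fold change was 2.77 (SE 0.25, 95% interval 2.19 to 3.35), or 6.82-fold higher, with an adjusted p of 0.000272 in the limma fit over probes and an exact permutation p of 0.0286. It was 3.24 with spike-in scaling and 2.59 to 2.94 when any 1 array was left out. Within the 3 arrays of low Xist, with a single DTG array, it was 2.85 (adjusted p = 0.0536).

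The fold changes of the Skil probes differed by 2.80 log2 units. Among 4551 genes with more than 1 probe, 15 (0.33%) had a gap this large, and the median gap was 0.30. The gap was 0.09 for Tgfb2 and 0.22 for Tgfbr2. With the mean of the probes in place of the brightest one, Skil was 1.37 log2 units higher in DTG and passed (adjusted p = 0.0023), so the call for this gene turned on the choice of probe. Where on the transcript each probe lies was not analysed here, and which of them follows the Skil transcript was not tested. Over all 11 tested probes of these genes, 3 changed, where 31.3% of all 23194 probes tested did. They were both Tgfb2 probes and the dimmer Skil probe.

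**Figure D2:**
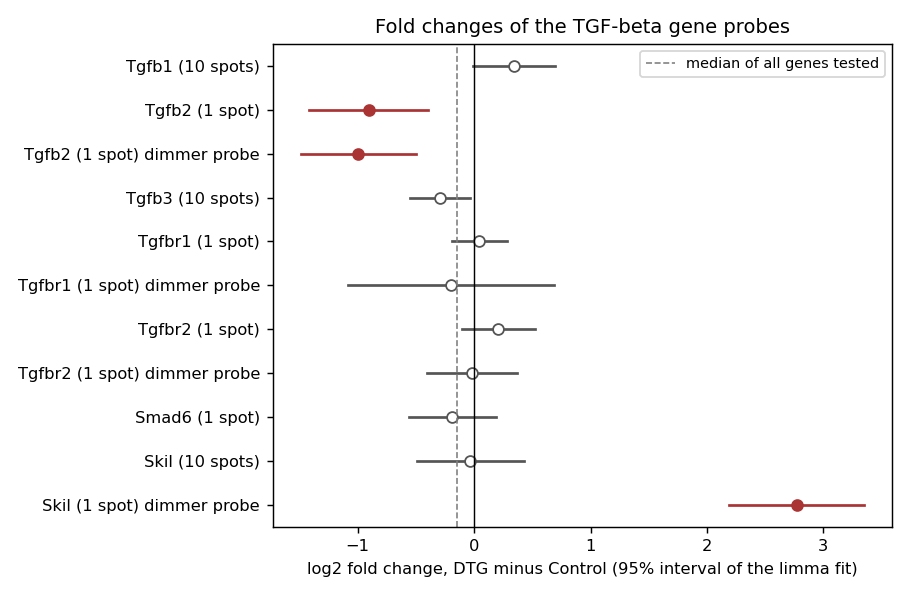
The horizontal axis gives the log2 fold change, DTG minus Control, of the 11 tested probes of 7 TGF-beta genes, with the 95% interval of the limma fit over probes as lines. Red filled points have an adjusted p under 0.05, and the dashed line is the median of all genes, -0.15. Both Tgfb2 probes lie below it and the dimmer Skil probe at 2.77 stands apart from the brighter one at -0.03.

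No difference between the Xist classes in the DTG effect was found for any of the 7 genes (interaction term of the limma fit, smallest adjusted p = 0.680), with a single DTG array in the low Xist class.

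The direction of each gene was set beside a wider list of 70 pathway genes, of which 68 were tested. Of these, 24 changed (35.3%, against 32.4% of all genes), 12 lower and 12 higher, with a median fold change of -0.02 against -0.15 over all genes. With spike-in scaling the counts were 1 lower and 29 higher, and with the slide column as a block 7 lower and 10 higher. They were 4 lower without Control 3, 6 lower without DTG 3 and 7 lower without DTG 4, and 7 higher without Control 2, DTG 1, DTG 2 or DTG 4.

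Of the 11 genes that hold TGF-beta latent or activate it, 3 passed as higher, 1 of them (Itgb8) near background in DTG, and none as lower. Of all genes, 11.1% rose and 21.3% fell. Itgav, the integrin alpha chain that pairs with several activating beta chains, was 0.95 higher in DTG (SE 0.27, adjusted p = 0.0269, limma), and its other probe was 1.71 higher. With 1 array left out the brighter Itgav probe passed in 2 of 8 cases (adjusted p up to 0.0706, without Control 3). Itgb6, its epithelial partner, rose by 0.41 (SE 0.10, adjusted p = 0.0177), and did not pass with the slide column as a block (adjusted p = 0.0581). Itgb8, another partner, read 0.53 higher (adjusted p = 0.0391). It was well above background on 1 of 4 DTG arrays and passed the filter through its Control arrays alone. Its DTG mean of -5.66 lay below the lowest signals well above background on the DTG arrays (-5.51 to -5.25), so no rise is stated for it. Itgb8 passed in 2 of 8 cases with 1 array left out (adjusted p up to 0.0956, without DTG 2). With the slide column as a block it did not pass (adjusted p = 0.0883). The latent binding proteins were not among the genes that changed. Neither of the tested co-receptor genes Tgfbr3 and Eng changed, and Bambi was not tested.

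Of 9 tested genes of the activin branch, which shares Smad2 and Smad3 with TGF-beta, 1 rose and 3 fell, against the same shares of all genes. Inhba, the activin A subunit, read -1.98, -1.64, -1.70 and -1.44 in Control and -0.25, -0.74, -0.31 and -0.67 in DTG, with no overlap. It rose by 1.20 (SE 0.16, adjusted p = 0.0012, limma). Acvr1c, a type I receptor known for its expression in fat, was 1.73 log2 units lower, or 3.33-fold (SE 0.28, adjusted p = 0.0031), and its other probe -1.79. Of 8 adipocyte markers, 6 were lower in DTG, where 21.3% of all genes were. Lep and Lipe had positive estimates that did not pass (1.32 and 0.20). The summed level of the 8 adipocyte markers, in multiples of the 75th percentile signal, was 67.7 to 96.8 in Control and 66.3 to 70.6 in DTG. The part of adipocytes in the Acvr1c result was not tested. The type II receptors Acvr2b and Acvr2a fell by 0.58 (adjusted p = 0.0101) and 0.36 (adjusted p = 0.0274), and neither passed with spike-in scaling, where Acvr2b was -0.11 (adjusted p = 0.610) and Acvr2a 0.11 (adjusted p = 0.637), or with no scaling (adjusted p = 0.112 and 0.250). With the slide column as a block the adjusted p of Acvr2a was 0.0725. With 1 array left out Acvr2a passed in 3 of 8 cases (adjusted p up to 0.0733, without DTG 2). The other Acvr2a probe was -0.08 (limma adjusted p = 0.845 over probes). With the mean of its probes Acvr2a was -0.22 and did not pass (adjusted p = 0.305).

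None of the 4 tested signalling Smad genes of the TGF-beta branch changed (Smad2, Smad3, Smad4 and the Smad anchor Zfyve9), and their estimates ran from -0.34 to 0.19. Among 13 other brakes on Smad signalling, 2 rose and 3 fell, where 11.1% of all genes rose and 21.3% fell. Smurf1, a ubiquitin ligase that targets Smads and receptors, read -2.24, -2.55, -2.16 and -2.40 in Control and -0.80, -0.39, -0.74 and -0.86 in DTG, with no overlap. It was 3.11-fold higher in DTG (1.64 log2 units, SE 0.14, adjusted p = 0.000184, limma), and it passed under every setting tried. Nedd4l, another ubiquitin ligase, was 0.38 higher (adjusted p = 0.0433), but its other probe was -0.52 and passed in that direction (adjusted p = 0.0265), the mean of its probes -0.07, and it passed in 1 of 8 cases with 1 array left out (adjusted p up to 0.103, without Control 3). Ski, the close relative of Skil, fell by 0.54 (SE 0.12, adjusted p = 0.0109), and Fmod, a matrix proteoglycan that binds TGF-beta, by 0.80 (SE 0.20, adjusted p = 0.0184, or 0.0517 without Control 3). With spike-in scaling Ski was -0.07 (adjusted p = 0.710) and Fmod -0.33 (adjusted p = 0.320), and with no scaling their adjusted p-values were 0.0793 and 0.0778, so neither call held under these scalings. With the slide column as a block the adjusted p of Fmod was 0.0599 and that of Nedd4l 0.0526. The remaining gene that fell was Dcn, named here after its values were seen, at -0.34 (limma adjusted p = 0.0492), with overlapping groups. Dcn did not pass as lower with spike-in scaling or with no scaling.

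Of 22 genes known as TGF-beta targets, 6 rose, 4 fell and 12 did not pass, where 11.1% of all genes rose and 21.3% fell. Cdkn1a and Cdkn2b, which encode inhibitors of the cell cycle that TGF-beta induces in epithelia, were 0.92 (SE 0.16, adjusted p = 0.0040, limma) and 0.56 (SE 0.13, adjusted p = 0.0139) higher in DTG. Timp1, an inhibitor of matrix proteases, rose by 0.76 (SE 0.14, adjusted p = 0.0058) and the transcription factor Snai1 by 0.97 (SE 0.24, adjusted p = 0.0174). The other genes of this list that passed were named after their values were seen. Junb (1.08, limma adjusted p = 0.0305) and Ccn1 (0.61, adjusted p = 0.0434) also rose, with overlapping groups. Nox4, Tgfbi, Postn and Fn1 fell on the scale used here. With spike-in scaling and with no scaling Acvr1c was the only pathway gene that passed as lower, so none of these falls held there. The genes that fell included matrix genes of fibroblasts. The summed level of 8 fibroblast markers was 69.6 to 74.4 in Control and 58.1 to 67.8 in DTG. Of these markers 3 were lower, where 21.3% of all genes were, and none passed as higher. Their part in these results was not tested. The 7 listed genes of BMP-type Smad signalling were the target genes Id1 to Id4 and the Smad genes Smad1, Smad5 and Smad9. Id1 to Id4 did not pass (0.03, -0.06, -0.21 and 0.0008, limma adjusted p 0.640 to 0.998), nor did Smad1 (-0.09). Smad5 and Smad9, 2 of the 7, passed as lower on their brighter probe, where 21.3% of all genes fell. Smad5 was -0.36 on that probe (adjusted p = 0.0212), while its other probe was 0.59 and passed as higher (adjusted p = 0.0082), so no direction is given for it. The brighter probe was 0.11 with spike-in scaling and did not pass with no scaling (adjusted p = 0.189), with the slide column as a block (adjusted p = 0.05001) or without DTG 2 (adjusted p = 0.0573). Smad9, not above background on any DTG array, was at least 1.1-fold lower in DTG (measured means -5.26 and -6.37, adjusted p = 0.0246). It passed the filter on low values through its Control arrays alone, so its DTG value is a bound and its place in the count adds nothing to that bound. With 1 array left out it passed in 2 of 8 cases (adjusted p up to 0.0633, without Control 3).

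**Figure D3:**
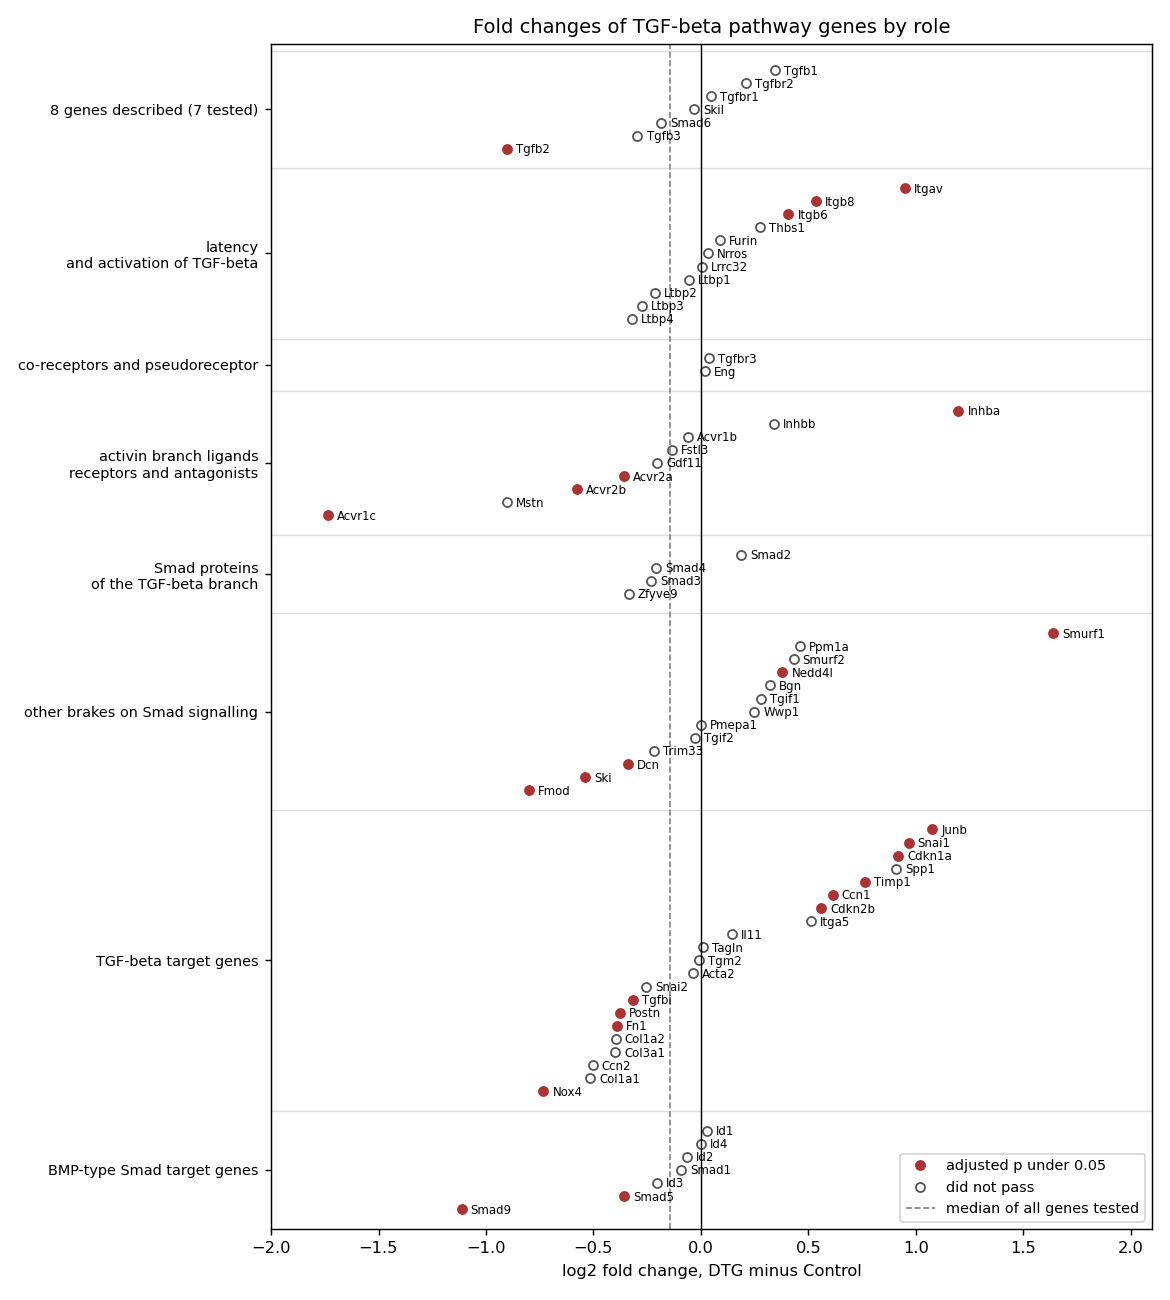
Points give the log2 fold change, DTG minus Control (horizontal axis), of the tested TGF-beta genes and of other pathway genes, grouped by role along the vertical axis and labelled by gene. Red filled points have a limma adjusted p under 0.05 and the dashed line is the median of all genes, -0.15. Changed genes lie on both sides of it, from Acvr1c at -1.73 to Smurf1 at 1.64, and with spike-in scaling the pathway counts were 1 lower and 29 higher.

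Markers of other cell types were read on the same arrays. Of 7 tested T cell markers, 4 were lower in DTG, where 21.3% of all genes were, with summed levels of 8.04 to 9.24 in Control and 5.13 to 6.62 in DTG. Of 7 keratinocyte markers, Krt5, Krt1 and Krt10 were lower and Ivl higher, with summed levels of 126 to 166 in Control and 106 to 127 in DTG. Of 7 hair follicle markers 1 was lower, with summed levels of 7.87 to 8.63 in Control and 5.96 to 7.21 in DTG. Of 8 skeletal muscle markers 2 were lower, with summed levels of 127.5 to 138 in Control and 105 to 115 in DTG. No marker tested in these lists, nor in the fibroblast and adipocyte lists, was below background on all arrays of a group. In the main setting the marker sums of T cells, hair follicle, fibroblasts and skeletal muscle did not overlap, and were lower in DTG. Of all single genes, 23.2% were lower in DTG with no overlap. The sums of keratinocyte and adipocyte markers overlapped between the groups. The sums also overlapped for endothelial cells (8.71 to 10.74 in Control and 7.06 to 9.47 in DTG, 2 of 8 markers lower and 1 higher), for macrophages and monocytes (47.7 to 63.0 and 43.25 to 58.3, 1 of 7 higher), for neutrophils (45.9 to 70.005 and 51.9 to 63.4, 1 of 7 lower), and for smooth muscle and pericytes (23.4 to 25.3 and 22.1 to 25.0, 1 of 8 lower). The part of these cell types in the change of Tgfb2 was not tested. No marker sum was taken with spike-in scaling, where the median fold change of all genes was 0.32, against -0.15 in the main setting. Whether the order of the groups holds there was not tested. The hair follicle sum rested mostly on Lhx2 and Sox9, with Control means of 2.07 and 1.84. The Control means of the tested hair keratins were -5.95 to -2.98.

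The genes whose profile over the 8 arrays was most like that of Tgfb2 were sought by the root mean square difference of centred levels among 17280 genes. The nearest was Ramp1 (0.09 log2 units), followed by Pitx1 (0.14), Clrn3 (0.16), Hpgd (0.16) and Slc43a1 (0.17). Ramp1, a subunit of peptide hormone receptors, read 1.76, 1.63, 1.86 and 1.02 in Control and 0.76, 1.02, 0.63 and 0.37 in DTG. Control 4 was the lowest Control array for Ramp1, as it was for both Tgfb2 probes. Pitx1, a homeobox transcription factor, read -0.81, -0.87, -0.81 and -1.56 in Control and -1.79, -1.67, -1.78 and -2.10 in DTG, with Control 4 again lowest. These genes were all picked for likeness to Tgfb2 over these same arrays, so a low Control 4 and a like fold change follow from the choice. The fold changes of Ramp1, Pitx1, Hpgd and Slc43a1 were -0.87, -0.82, -0.75 and -0.93, and with spike-in scaling, where none of them passed, -0.40, -0.35, -0.29 and -0.47. The other Hpgd probe was -0.44 (limma adjusted p = 0.234 over probes), and the mean of its probes did not pass (adjusted p = 0.0607). Clrn3 was not well above background on any DTG array, and no fold is given for it.

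**Figure D4:**
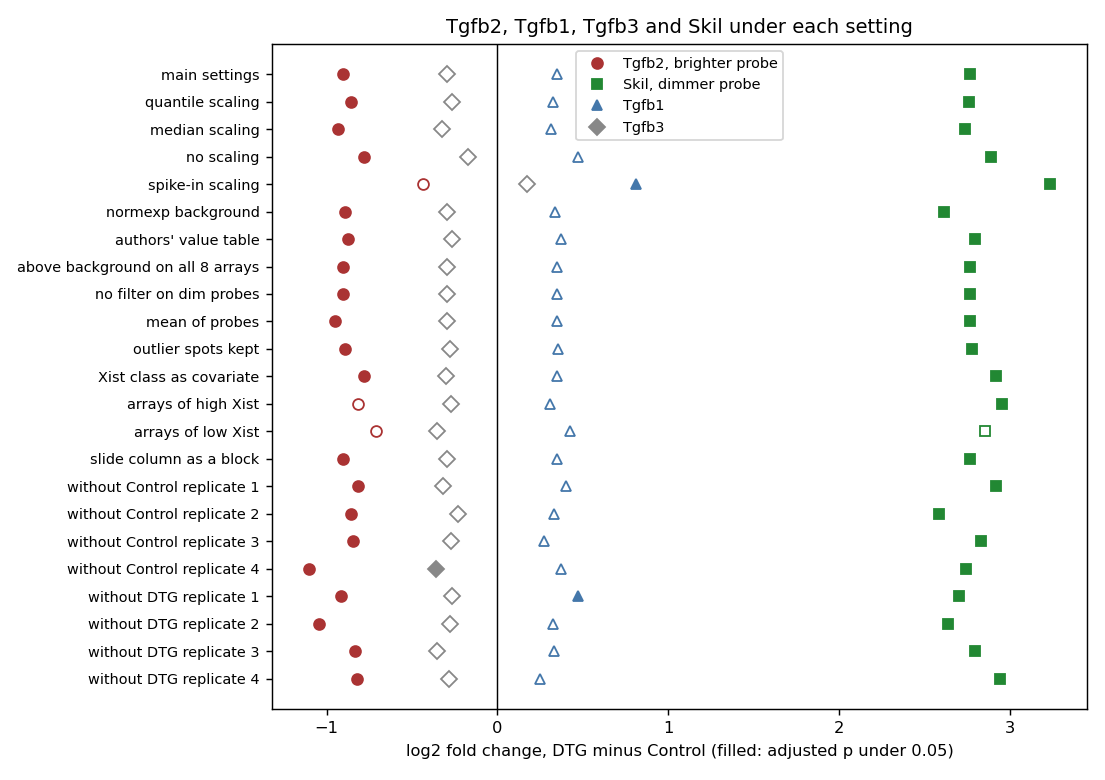
The horizontal axis gives the log2 fold change, DTG minus Control, of Tgfb2 (brighter probe), the dimmer Skil probe, Tgfb1 and Tgfb3, with a row for each processing setting, and filled symbols have a limma adjusted p under 0.05. Tgfb2 stays below 0 and the Skil probe between 2.59 and 3.24 in every row, while Tgfb3 lies at 0.17 with spike-in scaling and at -0.30 in the main setting.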

How the data were processed

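The tissue label gave each sample its group, and array numbers within a group follow deposit order and pair nothing. The 8 members and all gene lists were chosen with earlier results of these data known. Per the file headers, the scanner images were read with Agilent Feature Extraction 11.5.1.1, while the submitters' processing notes name version 10.7. The deposited intensity used was the processed signal, which is background-subtracted. The deposited value table held 43861 probes, and for 99.6% of its values the ratio to the mean processed intensity of the probe lay within 0.001 of 1. Spots flagged as outliers were left out, spots of a probe were averaged, and log2 values were set relative to the 75th percentile of non-control probes on the same array. This step assumes a like upper range on all arrays. Probes well above background on 3 or more of the 4 arrays of either group were kept. Probes were named through RefSeq accessions (GRCm38.p6 table, 48.1% of probes), and the brightest kept probe stood for a gene. Groups were compared with limma 3.58.1 (lmFit and eBayes, R 4.3.3) over 17751 genes, with Benjamini-Hochberg adjustment, and single genes also with a two-sided exact permutation test. The fit was tested on simulated data with 100 genes changed by 0.5 and 100 by 1 log2 unit, and it recovered 18% and 70% of them. Fewer genes changed there than in these data, so the shares need not hold here. A gene that did not pass may therefore still have changed. The genes named are the members with all their probes, genes that check the labels, up to 4 called genes of smallest p in each of 7 pathway lists, and the 5 profiles nearest to Tgfb2. Alternatives covered scaling, background correction, filters, probe choice, Xist class, slide column and single arrays. The number of arrays limits the precision. A single pathway gene is counted in its list but not plotted, and its result is not reported here.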

Additional observations from a re-analysis of the deposited data

Results flagged for a closer look

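An array that stood far from the other 3 of its group was sought in 68 groups of 4 arrays, and 5 were found (Dixon's 95% critical value for the gap over the range). Chance alone flags about 1 in 20 groups. For Tgfb2, Control 4 read 0.98 on the brighter probe against 1.72 to 1.84 in the other Control arrays, and the fold change without it was -1.10. For Pitx1, 1 of the profiles nearest to Tgfb2, the same array read -1.56 against -0.87 to -0.81. Pitx1 was picked for its likeness to Tgfb2, so its flag is no finding apart from that of Tgfb2. For Cdkn2b, Control 2 read 0.72 against 1.13 to 1.21. For Smad9, Control 1 read -6.02 against -5.05 to -4.94, and DTG 2 read -5.64 against -6.66 to -6.57, in a gene not above background on any DTG array.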

How the results depend on the processing

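Of the settings tried, spike-in scaling changed most calls of the TGF-beta genes. It gave Tgfb1 0.81, Tgfb2 -0.44 and, on the second Tgfb2 probe, -0.53, and on their brighter probes Tgfbr1 0.51 and Tgfbr2 0.68. In the exact permutation test Tgfb2 (-0.90) had p = 0.0571. Within the arrays of high Xist Tgfb2 was -0.82. Within those of low Xist, with a single DTG array, it was -0.71, its second probe -0.68, and the dimmer Skil probe 2.85, none of them past the threshold. With the mean of probes Skil was 1.37, Smad5 0.12, Msi2 0.27 and Nedd4l -0.0713. In the main setting Msi2 was -0.55 on its brighter probe (limma adjusted p = 0.0024), while its other probe was 1.09 (adjusted p = 0.00093 over probes). Spike-in scaling turned Acvr2a to 0.11 and Smad5 to 0.11. Genes called numbered 5754 in the main setting, 3829 with no scaling, 2591 in high and 249 in low Xist arrays. Pathway genes called lower numbered 12 in the main setting, 7 with quantile scaling, 1 with no scaling, 1 with spike-in scaling, 3 and 0 in high and low Xist arrays, and 7 with the slide column as a block. Those called higher numbered 12, and 29 with spike-in scaling, 6 in high and 1 in low Xist arrays. Leaving out 1 array gave 4 to 13 lower and 7 to 13 higher pathway genes, Tgfb1 0.25 to 0.47 and Tgfb3 -0.36 to -0.23. The share of calls that were lower was 65.6% in the main setting, 41.7% with no scaling, 54.7% with no filter on dim probes, 54.1% in high and 32.5% in low Xist arrays. Causes of these changes were not tested. The labels give no replicate numbers to pair samples by, and with the slide column as a block Tgfb2 (adjusted p = 0.0189), its second probe and the dimmer Skil probe still passed. The dimmer Tgfbr1 probe, Itgb8, Smad9 and Clrn3 lay near background in DTG arrays.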
